A study of Mus musculus with 9 samples.

Results

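Cytokine receptors of blood cell formation were followed across a mouse model of acute myeloid leukaemia with and without Ezh2, the methyltransferase of a Polycomb complex that silences genes. The receptor genes were Csf3r, Csf2ra, Csf2rb, Csf1r, Il3ra, Il5ra, Il6ra, Epor and Il1r2, taken as every probe set (a group of array probes read as 1 value) whose annotation is exactly 1 of these symbols. All 9 genes were on the array, with 13 of its 45101 probe sets. The 9 arrays came from 5 Ezh2-null and 4 WT leukaemias, described as biological replicates in C57B/6 mice. Both groups carried the MLL-AF9 fusion from a retrovirus marked with GFP, and both were sorted for YFP, which marks cells in which Cre had been active, so Cre activity is common to Ezh2-null and WT cells. The labels do not name the Ezh2 allele or the promoter that drives Cre. Mice irradiated with 600 cGy received 100000 cells from replated leukaemic colonies, were given pIpC 2 to 3 weeks after transplantation, and their sorted cells were passed to irradiated secondary recipients, whose sorted marrow was hybridised. The primary leukaemia behind each secondary recipient is not in the labels. The p-values therefore measure the spread between these samples, some of which may share an origin.

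Haematopoietic cytokines keep blood progenitors alive and steer them towards one lineage. Most of their receptors belong to the class I family, which has no enzyme of its own and signals through bound JAK kinases and STAT transcription factors. The receptors for GM-CSF, IL-3 and IL-5 each pair an alpha chain, which gives the ligand specificity, with the shared beta chain encoded by Csf2rb. The IL-6 receptor alpha chain pairs with gp130, encoded by Il6st, while G-CSF and erythropoietin receptors signal as pairs of the same chain. The M-CSF receptor Csf1r is a receptor tyrosine kinase of monocytes and macrophages, and Il1r2 is a decoy receptor that binds IL-1 without signalling. Deposited intensities were taken to log2, each gene was represented by its brightest probe set, and Ezh2-null was compared with WT by limma, a linear model fitted across all 20680 genes.

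Of the receptors, Csf3r was separated between the genotypes without overlap, at 9.64 ± 0.28 in Ezh2-null (log2, SD, n = 5) and 8.87 ± 0.12 in WT leukaemias (SD, n = 4). None of the 9 receptor genes passed limma at a Benjamini-Hochberg adjusted p under 0.05, a threshold that 0.498% of all genes passed. Csf3r came nearest, with an adjusted p of 0.0611, and was the only 1 of the 9 under 0.1, where 2.36% of all genes lay. At an unadjusted p under 0.05 there were 2 receptor genes, Csf3r and Il3ra, against 17.2% of all genes. Csf3r was also the only 1 of the 9 with no overlap between the groups, a state reached by 5.9% of all genes. The log2 change was above 0 for 5 receptors and below 0 for 4, where 53.3% of all genes were above 0, with a median of 0.13, against 0.02 over all genes. The median size of the change, regardless of sign, was 0.20 for the receptors and 0.18 for all genes.

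**Figure D1:**
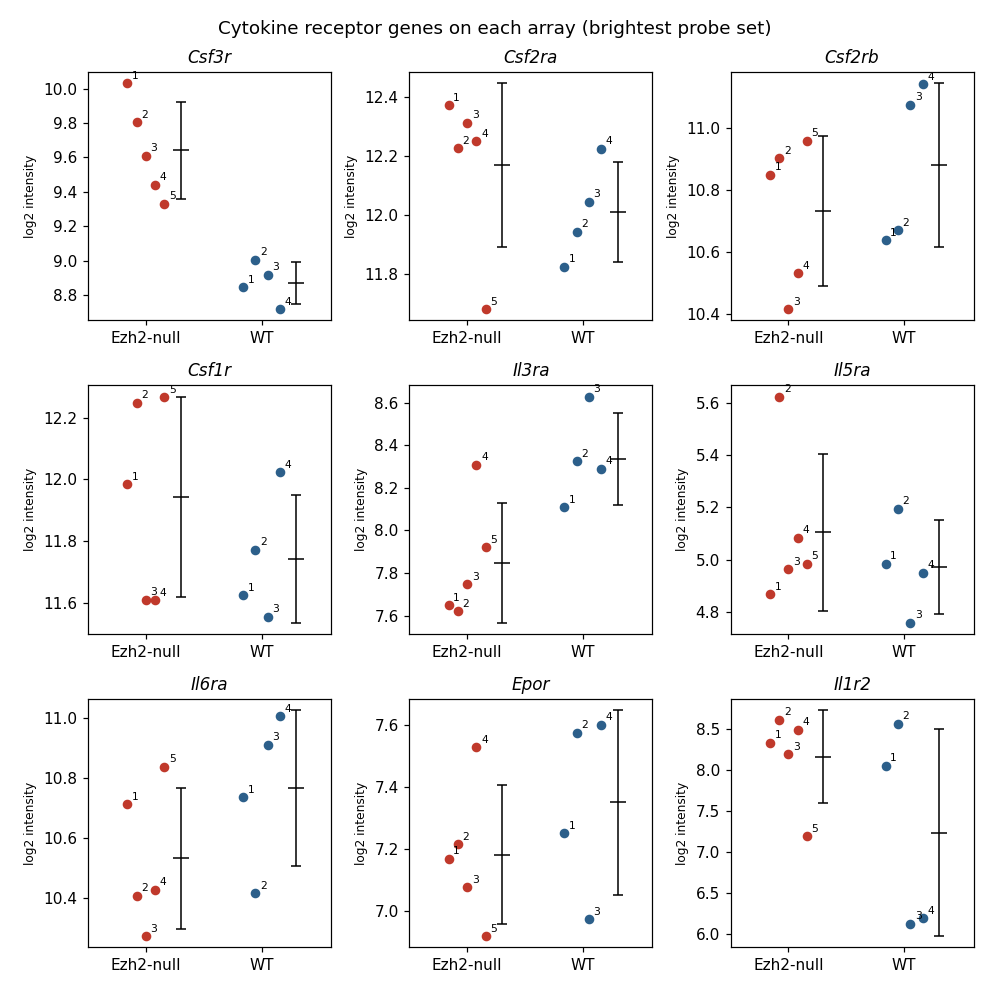
Log2 intensity (y axis) of the 9 receptor genes on each array, Ezh2-null left and WT right. Points are arrays with their replicate numbers, and the bar gives the mean and SD. The 5 Ezh2-null arrays lie above the 4 WT arrays for Csf3r, and WT replicates 3 and 4 lie far below the other arrays for Il1r2.

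The targeted gene, Ezh2, lay at 8.95 to 9.36 on the log2 scale in Ezh2-null against 9.79 to 10.89 in WT, and fell by 1.30 (limma adjusted p = 0.0373). Over 20 alternative analyses the Ezh2 change stayed negative, from -1.53 to -0.99, with limma adjusted p from 0.00632 to 0.149, and it passed in 11 of the 20. Several of the 20 cannot move the change of a gene, only its adjusted p or the threshold. Within the WT group, replicates 3 and 4 stood apart from all other arrays on the first principal component. Their log2 levels correlated across genes with r = 0.988, the highest of any WT pair. Leaving both out moved some changes by over 1.5 times. Both values are then given for the receptors and for genes named by rule, on the brightest probe set. For Il1b, Stat5a and Stat5b the values on the WT arrays are given instead. The dimmer probe sets of a gene are not covered by this. Mpo, the myeloperoxidase gene of myeloid progenitors, read 13.00 to 13.88 in Ezh2-null and 13.43 to 14.24 in WT. The mean log2 level of 8 T and NK cell markers was 7.25 to 7.42 in Ezh2-null and 6.69 to 7.30 in WT.

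The 3 receptors with the smallest p, Csf3r, Il3ra and Il1r2, are shown here by the 250 bases before their start sites, to set the measured genes beside their regulatory sequence. Sequences are from RefSeq, build GRCm38.p6, and 7 of the 9 receptors had an entry. Csf2rb and Csf1r had none. Capitals mark GAGGAA, the purine-rich core bound by PU.1 and other ETS factors, and GCAAT, part of the site of the C/EBP factors, searched on both strands. No marked match overlaps another. The windows lie at chr4:126024409-126024658 for Csf3r, chr14:14346245-14346494 for Il3ra and chr1:40085843-40086092 for Il1r2, all on the plus strand.
Csf3r: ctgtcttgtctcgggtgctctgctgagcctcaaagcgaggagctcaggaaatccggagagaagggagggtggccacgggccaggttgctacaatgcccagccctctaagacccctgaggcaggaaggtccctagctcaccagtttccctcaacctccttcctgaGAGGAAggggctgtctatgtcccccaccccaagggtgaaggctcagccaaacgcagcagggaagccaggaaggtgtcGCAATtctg
Il3ra: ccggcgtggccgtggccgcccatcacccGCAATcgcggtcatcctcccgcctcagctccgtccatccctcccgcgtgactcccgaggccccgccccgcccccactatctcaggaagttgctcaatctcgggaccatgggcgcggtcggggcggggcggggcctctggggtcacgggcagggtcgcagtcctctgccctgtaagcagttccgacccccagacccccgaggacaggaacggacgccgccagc
Il1r2: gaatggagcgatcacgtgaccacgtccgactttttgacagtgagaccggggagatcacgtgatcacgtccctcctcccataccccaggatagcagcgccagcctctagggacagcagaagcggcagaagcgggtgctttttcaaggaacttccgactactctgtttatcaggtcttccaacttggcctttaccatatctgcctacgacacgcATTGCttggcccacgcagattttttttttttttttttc

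The Csf3r window holds both marked motifs, with GAGGAA ending 80 bases and GCAAT 4 bases before the start. The windows of Il3ra and Il1r2 hold 1 GCAAT match each and no GAGGAA. Over 32851 promoter windows of the same length, 23.3% hold GAGGAA and 23.1% hold GCAAT. A STAT site, written TTCNNNGAA, was found in the Il1r2 window alone among the 7 receptors and in 7.02% of all windows. A GATA site, AGATAA, was found on either strand in the windows of Il5ra, Il6ra and Epor and in 9.99% of all windows. The windows also differ in CpG dinucleotides, which are dense at many promoters that Polycomb complexes bind in mammals. Il3ra has 27 CpG, a number reached by 8.56% of windows, Il1r2 has 14 (29.4% of windows), and Csf3r has 6, the median of all windows. These matches describe the letters of the windows and were not tested against the expression values.

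Csf3r encodes the receptor for G-CSF, the cytokine of neutrophil production. Its 1 probe set read 10.03, 9.80, 9.61, 9.44 and 9.33 on the 5 Ezh2-null arrays. The 4 WT arrays read 8.85, 9.004, 8.92 and 8.72. All 5 Ezh2-null arrays were above the highest WT array, and the WT arrays lay within a narrow band. On the linear scale this is 644 to 1046 in Ezh2-null against 421 to 513 in WT. The log2 change was 0.77 (SE 0.15, 95% confidence interval 0.43 to 1.11), or 1.71-fold higher in Ezh2-null. An exact permutation test over all 126 splits of the arrays gave p = 0.00794, two-sided, the smallest that 5 against 4 arrays allow, and limma gave an adjusted p of 0.0611. Over 20 alternative analyses, several of which cannot move it, the change stayed between 0.58 and 0.85. The limma adjusted p lay between 0.0313 and 0.218. Csf3r passed limma after quantile normalization (adjusted p = 0.0360), with array weights (adjusted p = 0.0313) and without Ezh2-null replicate 5 (adjusted p = 0.0396). It also passed limma with the mean of all probe sets per gene (adjusted p = 0.0497). There its own values are unchanged, since it has 1 probe set, and only those of other genes differ. Without WT replicates 3 and 4 the change was 0.72, with an adjusted p of 0.218.

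Neutrophil marker levels also differed between the arrays. Of 12 measured markers none passed limma and 10 had a positive change, where 53.3% of all genes did. The other 2, Mpo and Elane, had a negative change with overlap, and were highest on WT replicates 3 and 4. Of the 12 markers, 4 were higher and none lower at an unadjusted p under 0.05, where 8.2% of all genes were higher and 8.97% lower. The mean log2 level of the 12 was 12.21 to 13.11 in Ezh2-null and 11.24 to 12.65 in WT. The Ezh2-null average of 12.79 lay just above WT replicates 1 and 2 and far above WT replicates 3 and 4. The higher level of the list thus rests largely on WT replicates 3 and 4. The summed intensity of the 12 markers was 101321 to 153156 in Ezh2-null and 65389 to 124703 in WT. These arrays hold bulk RNA, in which fewer cells of a type and less RNA per cell cannot be told apart. WT replicates 1 and 2 had marker levels of 12.56 and 12.65 and Csf3r at 8.85 and 9.004. Ezh2-null replicates 3 and 5, with marker levels of 12.51 and 12.21, had Csf3r at 9.61 and 9.33. WT replicates 3 and 4, with marker levels of 11.24 and 11.62, had Csf3r at 8.92 and 8.72. The part of the markers in the Csf3r difference was not tested.

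**Figure D2:**
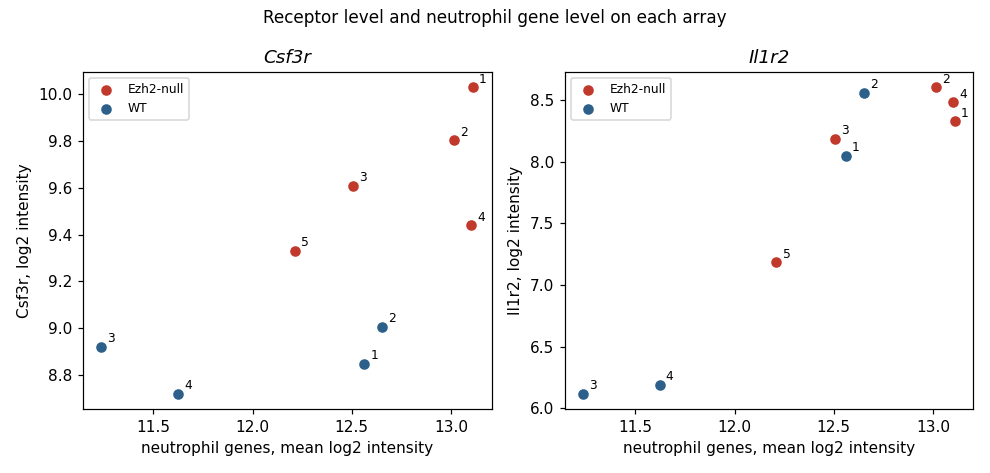
Csf3r (left) and Il1r2 (right), log2 intensity on the y axis, against the mean log2 intensity of 12 neutrophil genes on the x axis. Points are arrays with their replicate numbers. WT replicates 1 and 2 sit at marker levels of 12.56 and 12.65 with Csf3r at 8.85 and 9.004, below the Ezh2-null arrays, while their Il1r2 lies among the Ezh2-null values.

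Csf1r, the M-CSF receptor of the monocyte lineage, did not pass. Its brightest probe set ranged from 11.61 to 12.27 in Ezh2-null and from 11.55 to 12.02 in WT, and the groups overlapped. The log2 change was 0.20 (95% confidence interval -0.20 to 0.60, limma adjusted p = 0.600). The other probe sets stood at 0.19 and 0.13, so all 3 had the same sign. Monocyte and macrophage markers had a mean log2 level of 7.79 to 8.13 in Ezh2-null and 7.87 to 8.003 in WT over 12 genes. Their summed intensity was 5156 to 7554 in Ezh2-null and 6662 to 8960 in WT. Of these genes 1 was higher and 2 lower at an unadjusted p under 0.05, where 8.2% of all genes were higher and 8.97% lower. The lower ones were the chemokine receptor gene Ccr2 (change -1.52, limma adjusted p = 0.0681) and Cd68 (change -0.51, limma adjusted p = 0.144), both below every WT array on all 5 Ezh2-null arrays. The higher one was C1qa, at 5.60 to 6.15 in Ezh2-null and 5.37 to 5.48 in WT, without overlap (change 0.38, limma adjusted p = 0.178). In the list 7 changes were positive and 5 negative, with a median of 0.09. The part of these markers in the Csf1r values was not tested.

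In the GM-CSF, IL-3 and IL-5 receptor family the IL-3 receptor alpha chain gene Il3ra had the lower values in Ezh2-null leukaemia. It read 7.65, 7.62, 7.75, 8.31 and 7.92 on the Ezh2-null arrays. On the WT arrays it read 8.11, 8.32, 8.63 and 8.29. On 4 of 5 Ezh2-null arrays Il3ra was below every WT array, and Ezh2-null replicate 4 alone lay within the WT range. The log2 change was -0.49 (SE 0.17, 95% confidence interval -0.86 to -0.12), which left 71.3% of the WT intensity. The exact permutation test gave p = 0.0397, two-sided, and the limma adjusted p was 0.183, so the difference did not pass over all genes. It was negative in all 20 alternative analyses, several of which cannot move it, from -0.60 to -0.37, with limma adjusted p from 0.0858 to 0.513.

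The other chains of this family showed smaller differences. Csf2ra, the alpha chain for GM-CSF, read 12.37, 12.23, 12.31, 12.25 and 11.68 in Ezh2-null and 11.82, 11.94, 12.04 and 12.22 in WT. On 4 Ezh2-null arrays it was above every WT array, and on Ezh2-null replicate 5 below every one. The change was 0.16 (95% confidence interval -0.19 to 0.51, limma adjusted p = 0.637), and 0.28 without WT replicates 3 and 4. Il5ra, the IL-5 alpha chain of eosinophils, was dim, at 4.87 to 5.62 in Ezh2-null and 4.76 to 5.19 in WT, and was the 1 receptor below the 40th percentile of mean level. Its change was 0.13 (95% confidence interval -0.24 to 0.50, limma adjusted p = 0.720), and 0.015 without WT replicates 3 and 4. Eosinophil, basophil and mast cell markers had a mean log2 level of 6.66 to 7.80 in Ezh2-null and 6.14 to 6.44 in WT over 13 genes. Their summed intensity was 2396 to 19371 in Ezh2-null and 1314 to 2107 in WT, with the highest sum on Ezh2-null replicate 3. Of these genes 5 (Prg2, Prg3, Siglec5, Cpa3 and Gata2) were higher at an unadjusted p under 0.05, where 8.2% of all genes were higher. The same 5 had no overlap between the groups, a state reached by 5.9% of all genes in either direction. None of the list passed the adjusted threshold. The other 8 overlapped between the groups, and the median change of the list was 0.17. The part of these markers in the Il5ra values was not tested.

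The 2 probe sets of Csf2rb, the shared beta chain, disagreed in sign. The brighter one read 10.85, 10.90, 10.42, 10.53 and 10.96 in Ezh2-null and 10.64, 10.67, 11.07 and 11.14 in WT. The other read 10.70, 11.03, 10.39, 10.48 and 10.89 in Ezh2-null and 9.98, 10.35, 10.82 and 10.56 in WT. On both, WT replicates 3 and 4 were above WT replicates 1 and 2, and the Ezh2-null arrays overlapped them. The changes were -0.15 (95% confidence interval -0.52 to 0.22) and 0.27 (95% confidence interval -0.16 to 0.70) in the fit over 45037 probe sets, with limma adjusted p of 0.694 and 0.530. No direction can be given for Csf2rb, since over all arrays its probe sets disagreed and their mean stood at 0.06. Without WT replicates 3 and 4 the brighter probe set stood at 0.08. On the other probe set every Ezh2-null array was above WT replicates 1 and 2. The disagreement in sign thus depends on WT replicates 3 and 4. Csf2rb2, a second beta chain of mice that serves IL-3 alone, read 8.52 to 10.06 in Ezh2-null and 9.25 to 9.51 in WT (change -0.23, limma adjusted p = 0.697).

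**Figure D3:**
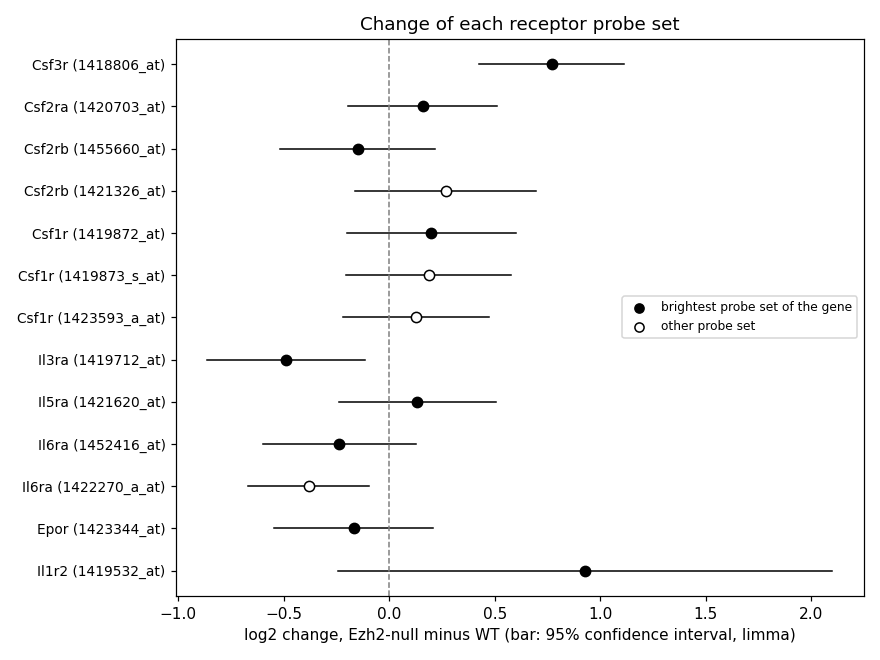
Log2 change, Ezh2-null minus WT (x axis), of the 13 receptor probe sets (y axis), with 95% confidence intervals from limma. Filled points are the brightest probe set of a gene and open points its others. The intervals of Csf3r, Il3ra and the dimmer Il6ra probe set do not reach 0, and the 2 Csf2rb probe sets lie on opposite sides of it.

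Il6ra, the ligand-binding chain for IL-6, stood lower in Ezh2-null on both of its probe sets. The brighter one read 10.71, 10.41, 10.27, 10.43 and 10.84 in Ezh2-null and 10.74, 10.41, 10.91 and 11.005 in WT, with a change of -0.24 (95% confidence interval -0.59 to 0.12, limma adjusted p = 0.486). The dimmer one read 8.92, 9.03, 8.60, 8.94 and 8.87 in Ezh2-null and 9.23, 9.02, 9.33 and 9.43 in WT. On it 4 of 5 Ezh2-null arrays were below every WT array. Its change was -0.38 (SE 0.13, limma adjusted p = 0.203 over all probe sets). Among the 13 receptor probe sets none passed limma, where 0.402% of all probe sets did, 3 had an unadjusted p under 0.05, against 15.9% of all, and 1 separated the groups, against 5.42%. Without WT replicates 3 and 4 the change of the brighter Il6ra probe set was -0.04.

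The gp130 gene Il6st, named after its values were seen as the signalling partner of Il6ra, also stood lower. It read 9.59, 9.08, 9.06, 9.84 and 10.96 in Ezh2-null and 10.95, 11.34, 10.16 and 10.003 in WT. On 4 of 5 Ezh2-null arrays it was below every WT array, and Ezh2-null replicate 5 lay in the WT range. The change was -0.91 (SE 0.41, limma adjusted p = 0.291), and -1.44 without WT replicates 3 and 4. Its other 3 probe sets stood at -1.15, -0.57 and -0.56.

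Epor, the erythropoietin receptor of erythroid progenitors, was at 7.18 ± 0.22 in Ezh2-null (log2, SD, n = 5) and 7.35 ± 0.30 in WT (SD, n = 4). The groups overlapped, with a change of -0.17 (95% confidence interval -0.54 to 0.20, limma adjusted p = 0.638). Of 10 genes on the erythroid list the transferrin receptor gene Tfrc fell, by 1.25 on the log2 scale (limma adjusted p = 0.0471). It was far brighter than the list mean, at 9.80 to 10.59 in Ezh2-null and 10.98 to 11.80 in WT. No other passed, at a threshold that 0.498% of all genes passed. With any 1 array left out Tfrc no longer passed, with limma adjusted p from 0.0559 to 0.112. Without WT replicates 3 and 4 together its change was -1.61 (limma adjusted p = 0.0387). The mean log2 level of the erythroid list was 6.55 to 6.86 in Ezh2-null and 6.51 to 7.07 in WT.

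Il1r2, the decoy receptor for IL-1, varied widely within WT. It read 8.33, 8.61, 8.19, 8.48 and 7.19 on the Ezh2-null arrays. On the WT arrays it read 8.05, 8.56, 6.12 and 6.19. WT replicates 1 and 2 were thus within the Ezh2-null range and WT replicates 3 and 4 below every other array. The change was 0.93 (SE 0.52, 95% confidence interval -0.23 to 2.09, limma adjusted p = 0.390; exact permutation p = 0.206, two-sided). Without WT replicates 3 and 4 it was -0.15. The neutrophil marker level in WT was likewise lower on replicates 3 and 4 (11.24 and 11.62) than on the other pair (12.56 and 12.65), and its part in the level of Il1r2 was not tested.

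Of 10 partner subunits, decoys and close relatives of the receptors, none passed limma over all genes, while 3 were higher and 1 lower at an unadjusted p under 0.05, where 8.2% of all genes were higher and 8.97% lower. Il1rn, which encodes the secreted antagonist of the IL-1 receptor, read 10.26, 10.63, 9.48, 10.33 and 8.20 in Ezh2-null and 8.74, 8.02, 8.68 and 8.57 in WT on its brightest probe set. On 4 of 5 Ezh2-null arrays it was above every WT array. The change was 1.28 (SE 0.44, limma adjusted p = 0.184). Its dimmest probe set averaged 8.26 ± 0.76 in Ezh2-null (SD, n = 5) and 6.07 ± 0.44 in WT (SD, n = 4). It rose by 2.19, with no overlap and a limma adjusted p of 0.0464 over all probe sets. It still passed in 2 of the 9 analyses with 1 array left out (without Ezh2-null replicate 5 or WT replicate 2), with limma adjusted p from 0.0226 to 0.122 over the 9. Il1rl1, the IL-33 receptor gene, was dim and separated the groups, at 5.03 to 5.59 in Ezh2-null and 4.21 to 4.85 in WT (change 0.69, limma adjusted p = 0.0878). The second Il1rl1 probe set gave a change of 0.01.

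Of 9 measured ligand genes none passed limma and none had an unadjusted p under 0.05, where 17.2% of all genes did, and their median change was 0.01, against 0.02 over all genes. The smallest p was that of Il3, at 5.62 to 5.90 in Ezh2-null and 5.17 to 5.82 in WT (change 0.29, limma adjusted p = 0.325), and the change was 0.08 without WT replicates 3 and 4. Next was Il6, at 3.55 to 4.00 in Ezh2-null and 3.77 to 4.70 in WT (change -0.29, limma adjusted p = 0.474), with a change of -0.54 without WT replicates 3 and 4. Both Il3 and Il6 were dim. The IL-1 gene Il1b had the largest change of the list, at 7.40 to 8.89 in Ezh2-null and 6.58 to 8.60 in WT (change 0.59, 95% confidence interval -0.38 to 1.56, limma adjusted p = 0.525). Its Ezh2-null mean of 8.27 lay between WT replicates 1 and 2 (8.60 and 8.19) and above WT replicates 3 and 4 (7.35 and 6.58). The positive change of Il1b thus rests on WT replicates 3 and 4.

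Among 27 other cytokine and growth factor receptors none passed limma, with 3 higher and 1 lower at an unadjusted p under 0.05 (8.2% and 8.97% of all genes) and a median change of 0.02. Il15ra, the alpha chain for IL-15, was lower on all 5 Ezh2-null arrays, at 7.80 to 8.75 in Ezh2-null and 9.002 to 9.87 in WT (change -1.004, SE 0.23, limma adjusted p = 0.0813). Its other probe set stood at -0.33. The oncostatin M receptor gene Osmr was dim and higher on all 5 Ezh2-null arrays, at 5.26 to 5.70 in Ezh2-null and 4.93 to 5.23 in WT (change 0.39, limma adjusted p = 0.158), with its other probe sets at 0.13 and -0.02.

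Downstream of the receptors, 9 of 11 JAK and STAT genes had a positive change, with a median of 0.27 against 0.02 over all genes. None passed limma, and 3 were higher and none lower at an unadjusted p under 0.05 (8.2% and 8.97% of all genes). Stat4, a STAT best known for the IL-12 response of lymphocytes, read 8.35, 7.40, 7.82, 7.51 and 7.09 in Ezh2-null and 6.25, 6.26, 4.93 and 6.28 in WT. All Ezh2-null arrays were above all WT arrays, and the change was 1.70 (SE 0.33, limma adjusted p = 0.0569). Its adjusted p was under 0.05 in 6 of 19 alternative analyses, over which the limma adjusted p ran from 0.0266 to 0.133. Stat4 was dim, below the 40th percentile of mean level, and so was absent from the analysis without dim genes. Stat5a and Stat5b, the STATs used by IL-3, GM-CSF and erythropoietin receptors, stood at -0.35 (limma adjusted p = 0.359) and 0.17 (limma adjusted p = 0.573). Stat5a read 9.44 to 9.84 in Ezh2-null and 9.43, 10.09, 10.25 and 10.27 in WT. Stat5b read 9.18 to 9.54 in Ezh2-null and 9.01, 9.55, 8.95 and 9.24 in WT. Both overlapped between the groups.

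**Figure D4:**
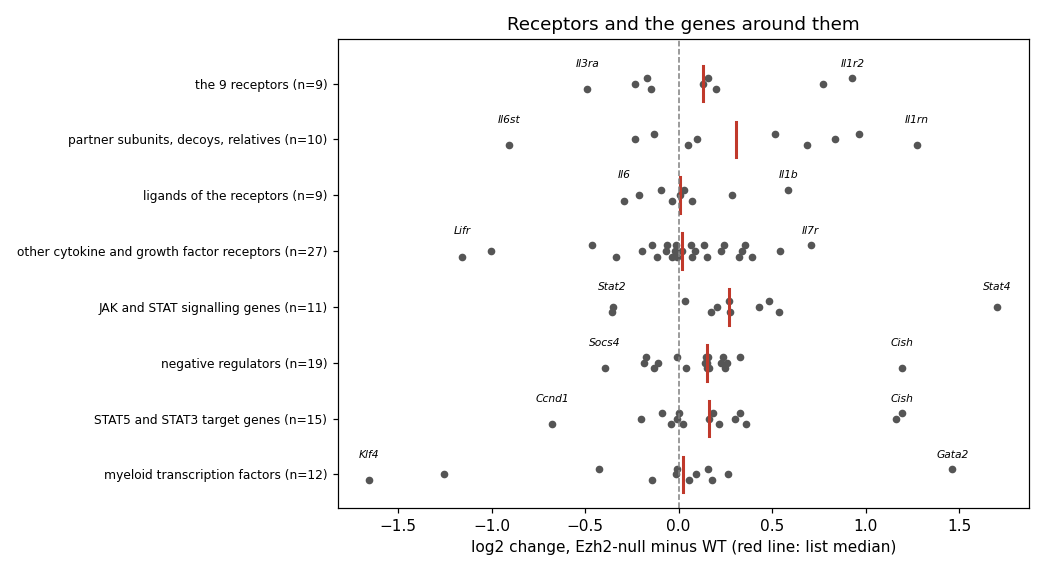
Log2 change, Ezh2-null minus WT (x axis), of the receptors and of the lists around them (y axis, with the number of genes measured). Each point is a gene, the red line is the list median, and the lowest and highest gene of each list is named. Medians run from 0.01 for ligands to 0.31 for partner subunits, decoys and relatives.

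Target genes of cytokine signalling gave a mixed picture. Of 15 STAT5 and STAT3 targets none passed limma, 10 had a positive change (53.3% of all genes), and 3 were higher and none lower at an unadjusted p under 0.05 (8.2% and 8.97% of all genes). Cish, a STAT5 target that damps receptor signalling, read 8.77, 9.07, 8.15, 8.49 and 7.52 in Ezh2-null and 7.30, 7.98, 7.12 and 6.43 in WT. On 4 of 5 Ezh2-null arrays it was above every WT array. Its change was 1.19 (SE 0.35, limma adjusted p = 0.140; exact permutation p = 0.0317, two-sided), and 0.76 without WT replicates 3 and 4. The repressor gene Bcl6 stood at 1.16 (limma adjusted p = 0.246), with WT replicates 3 and 4 at 7.43 and 7.62 and every other array between 9.45 and 10.42. Without those 2 arrays the change was 0.14. Its second probe set gave a change of 0.21. Of 19 negative regulators none passed limma and 3 were higher and 1 lower at an unadjusted p under 0.05 (8.2% and 8.97% of all genes). Socs1, which blocks JAK kinases, was dim and stood at 0.33 (limma adjusted p = 0.198) and its other probe set at -0.20.

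Of 12 measured transcription factors known at myeloid receptor promoters none passed limma, with 1 higher and 3 lower at an unadjusted p under 0.05 (8.2% and 8.97% of all genes). Cebpa, the factor that activates Csf3r in myeloid progenitors, read 9.37, 8.97, 8.27, 9.13 and 10.02 in Ezh2-null and 9.69, 10.26, 10.88 and 10.80 in WT. On 4 of 5 Ezh2-null arrays Cebpa was below every WT array, and its change was -1.26 (SE 0.34, limma adjusted p = 0.122), and -0.83 without WT replicates 3 and 4. PU.1, listed as Sfpi1, stood at 0.18 (limma adjusted p = 0.576). Gata2, a factor of stem cells and mast cells, was at 8.86 to 10.07 in Ezh2-null and 7.21 to 8.55 in WT (change 1.46, limma adjusted p = 0.0785). The change was 0.89 without WT replicates 3 and 4, and its other probe set stood at 0.65.

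The genes most like the leading receptors over the 9 arrays were ranked by Pearson correlation, a description that carries the genotype difference and the split within WT with it. For Csf3r these were the hexokinase gene Hk3 (r = 0.986), the flavin monooxygenase gene Fmo5 (r = 0.974) and the semaphorin gene Sema4a (r = 0.961). Sema4a rose by 0.77 (limma adjusted p = 0.0388), at 9.58 to 10.11 in Ezh2-null against 8.99 to 9.30 in WT. It still passed in 3 of the 9 analyses with 1 array left out (without Ezh2-null replicate 5, WT replicate 1 or WT replicate 2), with limma adjusted p from 0.0156 to 0.112 over the 9. Without WT replicates 3 and 4 together Sema4a did not pass (change 0.68, limma adjusted p = 0.166). For Il3ra they were Far2 (r = 0.934), Hspbp1 (r = 0.931) and the VEGF receptor gene Flt1 (r = 0.907). For Il1r2 they were the stress kinase genes Map3k5 (r = 0.982) and Mapk13 (r = 0.981) and Fam65b (r = 0.978), each low on WT replicates 3 and 4.

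**Figure D5:**
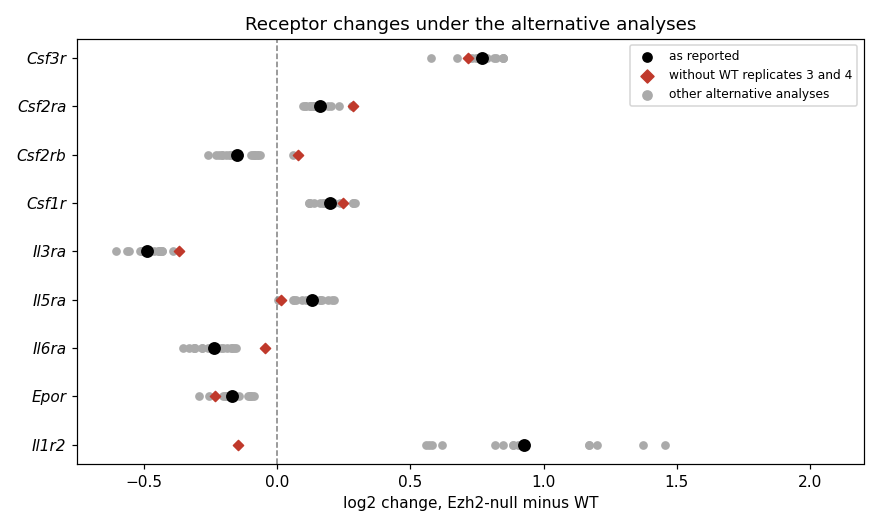
Log2 change, Ezh2-null minus WT (x axis), of the 9 receptor genes (y axis) as reported (black), without WT replicates 3 and 4 (red diamonds) and in the other alternative analyses (grey). Csf3r stays between 0.58 and 0.85 and Il3ra between -0.60 and -0.37, while Il1r2 moves to -0.15 without WT replicates 3 and 4.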

How the data were processed

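Per the labels' protocols, total RNA of sorted marrow cells was amplified and labelled with biotin. Per the submitters' processing notes the authors used RMA. The deposited table gives 1 linear intensity for each probe set and sample. Per the file headers, the authors also deposited ComBat-adjusted intensity values, used for gene symbols and as an alternative. That table has 7 further columns of per-sample values, which were left unused. For array type and build, the entry is: not given in the sources used here.

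Intensities were taken to log2 without a filter. Of 45101 probe sets, 64 were controls, 5820 named no gene and 1399 named more than 1, which leaves 37818. From these each of 20680 genes took its brightest probe set. A second fit covered all 45037 probe sets that were no controls. Both used limma 3.58.1 in R 4.3.3 with a genotype term alone, a two-sided test and a Benjamini-Hochberg threshold of 0.05. The procedure was tested on simulated data. The number of arrays limits the precision.

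The receptors and gene lists were chosen with earlier results of these data known. Named genes were all receptors, Ezh2, from each list those that passed or else the 2 with the smallest p (1 of these is not reported here), and for the 3 receptors with the smallest p the 3 most alike genes. Others were chosen after their values were seen: Il6st, Csf2rb2, Stat5a, Stat5b, Sfpi1 and Il1b. So were the markers Mpo, Elane, Tfrc, Ccr2, Cd68, C1qa, Prg2, Prg3, Siglec5 and Cpa3. Leaving out or averaging WT replicates 3 and 4 was added after seeing the data.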

Additional observations from a re-analysis of the deposited data

Results flagged for a closer look

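In 52 groups of 4 or 5 arrays from 26 probe sets, 6 held 1 array far from the rest of its group by Dixon's criterion, where chance gives about 5% of groups. Among the receptors, Csf2ra on Ezh2-null replicate 5 was at 11.68, with the next Ezh2-null array at 12.23. Il5ra on Ezh2-null replicate 2 was at 5.62, with the next at 5.08. Around the receptors, Il1rl1 on Ezh2-null replicate 4 was at 5.59, with the next at 5.18, and Bcl6 on Ezh2-null replicate 1 was at 10.42, with the next at 9.61. Within WT, Il6 on replicate 2 was at 4.70 (next 3.90) and Stat4 on replicate 3 at 4.93 (next 6.25).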

How the results depend on the processing

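Csf3r, Il3ra, Csf2ra, Csf1r, Il6ra and Epor kept their sign in all 20 alternative analyses, and Il5ra in the 19 that held it. Not all of these can move a change. Leaving out dim genes, a robust variance fitted to the level and the threshold of 0.1 keep it as it was. So does the mean of probe sets for a gene with 1 probe set. The replicate block gives the same change as leaving out Ezh2-null replicate 5. Csf2rb turned to 0.059 with probe sets averaged per gene and to 0.078 without WT replicates 3 and 4, and Il1r2 turned to -0.15 without those arrays. The cause was not tested. The count of receptors passing was 1 (Csf3r) after quantile normalization, with array weights, at an adjusted p under 0.1 and with the mean of probe sets, and between 0 and 1 with 1 array left out. Over all genes 103 passed (60 higher, 43 lower). It was 202 in the batch-adjusted table (94 higher, 108 lower), 1007 with array weights (397 and 610), 488 under 0.1, 61 without WT replicates 3 and 4, 22 with those averaged, and 17 (without WT replicate 4) to 330 (without WT replicate 2) with 1 array left out, where each of the 9 arrays moved the count by over 1.5 times. Over all probe sets the 181 became 299, 507, 739, 66, 41 and 23 to 399 in the same order. With the replicate number as a block 135 genes, 175 probe sets and 0 receptors passed. Same-numbered arrays deviated together with correlations of -0.05, 0.09, 0.13 and -0.14, so the numbers were not taken as pairs.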

Other observations

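A probe set shared by Csf2ra and an unnamed locus, which the rule for the receptors leaves out, was at 9.85 to 10.52 in Ezh2-null and 9.81 to 10.24 in WT, with a change of 0.27 (limma adjusted p = 0.425). A probe set shared by the beta chain genes Csf2rb and Csf2rb2 was at 9.99 to 10.29 in Ezh2-null and 9.87 to 10.43 in WT, with a change of -0.01 (limma adjusted p = 0.973). It lies between the 2 probe sets of Csf2rb that disagree in sign.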
